A study of Mus musculus with 20 samples.

Results

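*Sst* and *Apom* are 2 of the 31130 genes measured in cultured nephron progenitor cells (NPCs) of the mouse kidney. The pair was chosen by measured values, the lower normalized counts of each gene in high than in low CHIR in control cells and also in β-catenin KO cells, and their rows were found through the symbols that the deposited comparison tables pair with gene identifiers. The primary NPCs came from embryonic kidneys and all groups, controls included, carried the Cas9-eGFP genotype. Cells received sgRNAs by lipofection, were left for 48 h, and then spent 24 h at 1.25 µM (low) or 5 µM (high) CHIR before mCherry+ cells were sorted for RNA. CTRL cells received GFP sgRNA, β-catenin KO cells Ctnnb1 sgRNA, α-catenin KO cells Ctnna1 sgRNA, and QCKO cells Cdh sgRNA, a mixture aimed at *Cdh11*, *Cdh4*, *Cdh3* and *Cdh2*. There were 20 libraries, at each CHIR concentration 3 for CTRL and for β-catenin KO and 2 for QCKO and for α-catenin KO. Libraries are numbered by the date in their label, shared across groups and with no step of the work named for it, and α-catenin KO has dates 1 and 3 and QCKO dates 2 and 3. The mCherry mark shows that a cell took up the transfected RNA and not that its gene was edited. A KO library can thus hold unedited cells, and their share was not measured here. By immunofluorescence the paper reports no detectable Cdh2 or Cdh11 protein after their KO, and loss of most Cdh3, Cdh4 and α-catenin protein.

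CHIR99021 (CHIR) inhibits GSK3, a kinase that marks β-catenin for destruction and also phosphorylates many other proteins. Stabilised β-catenin enters the nucleus and works with TCF/LEF factors on Wnt target genes, which is the signal that starts nephron formation in NPCs. β-Catenin also ties cadherins to α-catenin at cell contacts, so the α-catenin KO and QCKO remove parts of the adhesion complex while leaving the nuclear partner in place. *Sst* encodes somatostatin, a small secreted peptide made by hypothalamic and cortical neurons and by endocrine cells of the pancreas and gut, which acts through Gi-coupled receptors to lower cAMP. *Apom* encodes apolipoprotein M, a lipocalin-fold protein of liver and kidney tubule that carries sphingosine-1-phosphate (S1P) on high-density lipoprotein.

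In the RefSeq annotation of GRCm38.p6, *Sst* (ENSMUSG00000004366) spans chr16:23889573-23891342 and *Apom* (ENSMUSG00000024391) spans chr17:35128997-35131801. Neither span overlaps another annotated gene. The nearest genes on both sides of *Sst* lie 34205 bases or more away, while *D17H6S53E* ends 141 bases from *Apom*. *D17H6S53E* had group means of 751 to 783 normalized counts in the 4 low CHIR groups and 363 to 677 in the 4 high CHIR groups. The 300 bases around the annotated start sites (250 before and 50 after) are printed here because both genes moved together with CHIR. They come from RefSeq, GRCm38.p6, are read 5′ to 3′ along the minus strand of both genes, and have in capitals each match to the motifs named below. The window of *Sst* is chr16:23890795-23891094 and that of *Apom* is chr17:35131752-35132051. The start site used for *Apom* (35131801) is the end of its span, while that used for *Sst* (23890844) lies inside the span, so the whole *Sst* window does too.
Sst promoter: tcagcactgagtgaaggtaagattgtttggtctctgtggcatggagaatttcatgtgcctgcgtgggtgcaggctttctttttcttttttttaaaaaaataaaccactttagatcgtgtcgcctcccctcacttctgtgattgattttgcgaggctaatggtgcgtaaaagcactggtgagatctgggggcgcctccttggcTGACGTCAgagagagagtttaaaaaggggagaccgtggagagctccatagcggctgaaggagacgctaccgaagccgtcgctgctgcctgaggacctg
Apom promoter: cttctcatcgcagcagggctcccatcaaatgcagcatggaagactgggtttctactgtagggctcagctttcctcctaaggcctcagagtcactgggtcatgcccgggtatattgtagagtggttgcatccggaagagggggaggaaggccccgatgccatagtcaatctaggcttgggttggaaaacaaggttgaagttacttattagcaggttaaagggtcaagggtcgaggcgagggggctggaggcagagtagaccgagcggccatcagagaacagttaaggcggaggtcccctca

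The *Sst* window held 1 palindromic cAMP response element (TGACGTCA) that begins 48 bases before the start site, a site for which this promoter is a textbook case. The element was present in 588 of 32851 promoter windows of the same length (1.79%). The shorter site TGACG, one arm of it, was found at 2 positions in the *Sst* window, both inside the full element, and in 20.8% of windows. The core of the TCF/LEF site (TCAAAG, 16.0% of windows), the AP-1 site (TGANTCA, 7.81%), one arm of the HNF1 site (GTTAAT, 7.10%) and the TATA box (TATAAA, 13.6%) were in neither window on either strand. The *Apom* window therefore has no capitals. These matches describe letters in a window and were not tied to binding of any factor.

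The 20 libraries held 18124772 to 28472412 reads recovered from the deposited values. Levels are given as normalized counts, which are reads divided by 1 size factor per library. The labelled cell type was checked by markers of nephron progenitors, of which 8 of 12 had a symbol. Their summed level was 15975 to 22066 in CTRL, low CHIR and 2534 to 3497 in CTRL, high CHIR, and in β-catenin KO it was 14008 to 24333 in low and 8061 to 15463 in high CHIR. With CHIR 7 of the 8 fell in CTRL, α-catenin KO and QCKO (*Six2*, *Cited1*, *Eya1*, *Osr1*, *Meox2*, *Wt1* and *Crym*), where 10.7%, 4.39% and 4.93% of all genes were called in either direction. *Pax2* rose in CTRL (log2 difference 2.19) and in α-catenin KO (1.69, adjusted p = 0.024 with limma, a call lost when any 1 of the 4 libraries was left out). *Six2*, the transcription factor that maintains NPCs, lay at 64.1 to 83.8 in CTRL, high CHIR and at 409 to 798 in β-catenin KO, high CHIR. *Wnt4*, an inducer of the nephron epithelium, set 1 β-catenin KO date apart from the others. On dates 1, 2 and 3 it was at 30.1, 831 and 634 in low CHIR, with 252, 2387 and 1200 in high CHIR, against 4156 to 5401 in CTRL, high CHIR, so results on β-catenin KO are also given by date. *Ctnna1*, targeted in α-catenin KO, had 3564 to 3790 normalized counts in those 4 libraries and 5817 to 10082 in the CTRL libraries. *Cdh2* and *Cdh11* had lower means in QCKO than in CTRL at both CHIR concentrations (2332 against 3673 and 2169 against 4334 in low CHIR), whereas *Cdh3* had a higher mean at both (682 against 538 in low CHIR) and *Cdh4* was lower in low CHIR (2154 against 2262) and higher in high CHIR (8471 against 8081). No identifier is paired with the symbol *Ctnnb1*, so its transcript was not checked. All of these are transcript levels, and protein was not measured in these libraries.

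*Sst* was expressed in NPCs in low CHIR in all 4 genotypes. In CTRL, low CHIR the 3 libraries had 445, 253 and 441 normalized counts of *Sst*. In CTRL, high CHIR they had 13.6, 17.1 and 65.8. The groups did not overlap, and the library of date 3 kept the most *Sst* in high CHIR. In β-catenin KO the low CHIR libraries had 258, 100.0 and 158, and those in high CHIR had 9.24, 9.97 and 6.94. The latter rest on 8, 9 and 8 reads, with an exact Poisson interval (95%) of 3.99 to 18.2 normalized counts for date 1, an interval that covers counting error only.

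*Apom* behaved more evenly across dates. In CTRL, low CHIR it had 382, 455 and 394 normalized counts, and in CTRL, high CHIR 13.6, 17.1 and 14.9. In β-catenin KO it had 206, 270 and 265 in low CHIR, and the high CHIR libraries had 62.4, 51.0 and 44.2. Low and high CHIR libraries were apart in both genotypes, but the distance was smaller in β-catenin KO, from both ends. All 10 low CHIR libraries of the series (206 to 455) lay above all 10 high CHIR libraries (13.6 to 62.4) for *Apom*, while for *Sst* the ranges overlapped (100.0 to 445 in low, 6.94 to 195 in high CHIR), since β-catenin KO libraries were low in low CHIR and the QCKO library of date 3 was high in high CHIR.

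**Figure D1:**
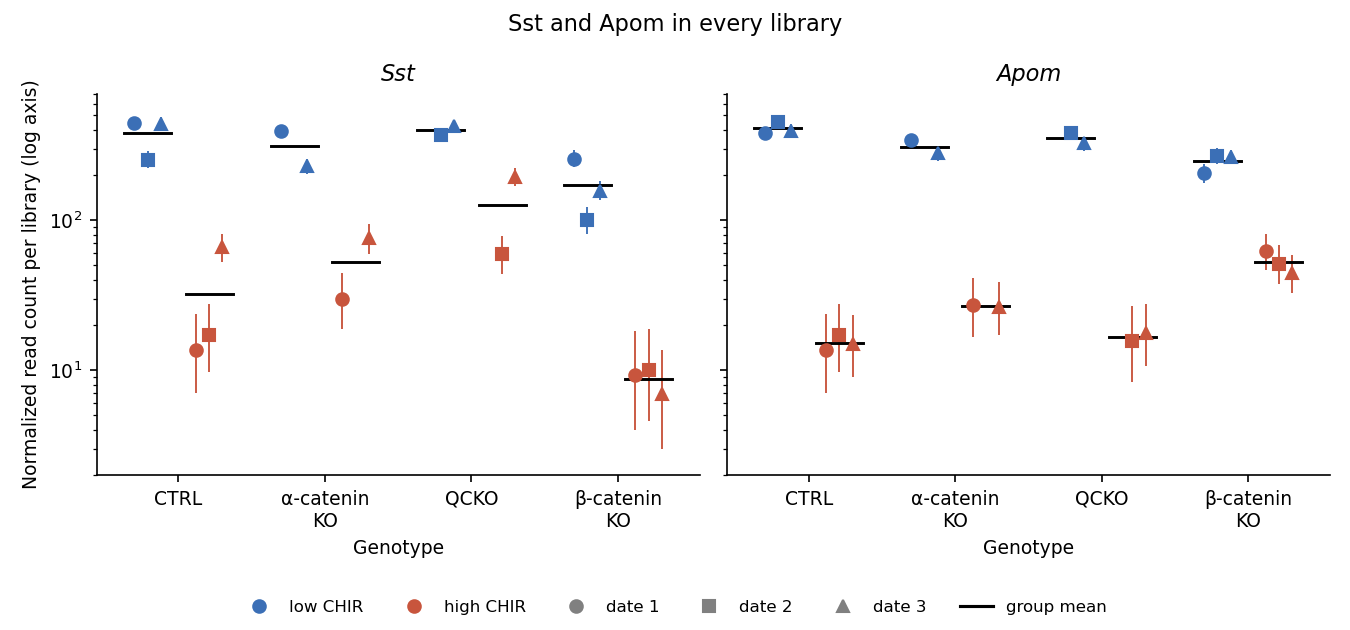
Normalized read counts (log axis) of *Sst* and *Apom* in each of the 20 libraries by genotype, blue for low and red for high CHIR, with the symbol giving the date, vertical lines the exact Poisson intervals (95%, counting error only) and black bars the group means. *Apom* in high CHIR is highest in β-catenin KO (44.2 to 62.4), where *Sst* is lowest (6.94 to 9.97).

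The differences between high and low CHIR in CTRL and β-catenin KO are those by which the genes were chosen, so they are described without a test. On the scale of log2(normalized count + 1), *Sst* was lower in high CHIR by a mean of -3.82 ± 1.10 (SD, n = 3 dates) in CTRL and -4.06 ± 0.76 (n = 3) in β-catenin KO. In CTRL the *Sst* remaining in high CHIR was 3.06%, 6.74% and 14.9% of the low CHIR level of the same date, and in β-catenin KO it was 3.58%, 9.98% and 4.40%. *Apom* differed by -4.67 ± 0.04 (n = 3) in CTRL and by -2.22 ± 0.45 (n = 3) in β-catenin KO. The *Apom* remaining was 3.56%, 3.76% and 3.78% in CTRL and 30.2%, 18.9% and 16.7% in β-catenin KO. The β-catenin KO libraries of date 1, which had the least *Wnt4*, had the smallest *Apom* difference (-1.71) and the largest *Sst* difference (-4.66). Without date 1 in low CHIR the fitted differences in β-catenin KO were -3.72 for *Sst* and -2.34 for *Apom*, and with date 1 as the only low CHIR library they were -4.75 and -1.97.

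Across all genes tested, 10.7% were called for CHIR in CTRL and 0.018% in β-catenin KO, where a call needs an adjusted p under 0.05 and a log2 difference over 0.5 in size in limma (Benjamini-Hochberg adjustment over all genes). These shares are background for the comparisons, and nothing is read from them about *Sst* and *Apom*, which were chosen on the same differences. *Meis1*, a homeobox factor, was not called in β-catenin KO. It had a mean of 1840 normalized counts (1671 to 2121) in low and 742 (537 to 921) in high CHIR, a log2 difference of -1.34. The number of genes called in β-catenin KO depended on the method, at 3 with edgeR, 51 with DESeq2 and 40 when the date entered as a block. Canonical Wnt targets are the usual readout of CHIR. Of 10 such genes with a symbol (of 16 listed), 8 rose (*Axin2*, *Lef1*, *Tcf7*, *Notum*, *Sp5*, *Wnt4*, *Jag1* and *Lhx1*) and *Myc* fell between low and high CHIR in CTRL. The log2 difference was 2.80 for *Axin2*, a feedback inhibitor, and 4.09 for *Lef1*, a DNA-binding partner of β-catenin. *Lgr5*, the remaining gene, was not called. Its mean was lower in high CHIR in CTRL (198 against 390 normalized counts) and in β-catenin KO (122 against 298). In β-catenin KO none of the 10 was called (limma; 741 of 16691 genes had an unadjusted p under 0.05), with 0.54 for *Axin2* and 0.52 for *Lef1*. These counts come from unlike fits, of 14 libraries for CTRL and 20 for β-catenin KO, and cannot be set against each other. With all 20 libraries the CTRL calls on *Axin2*, *Notum* and *Tcf7* were lost (limma, adjusted p = 0.146, 0.086 and 0.057). The levels of these targets in β-catenin KO were not uniformly low. *Axin2* had 319 ± 279 normalized counts (SD, n = 3) in β-catenin KO, low CHIR and 483 ± 403 in high CHIR, against 57.4 ± 16.5 and 394 ± 38.9 in CTRL. *Lef1* had 62.3 to 660 and 93.6 to 1020 in β-catenin KO, against 62.5 to 72.6 and 948 to 1465 in CTRL. The β-catenin KO libraries thus varied widely in these targets at both concentrations, and the mean of both genes in low CHIR was above that of CTRL.

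**Figure D2:**
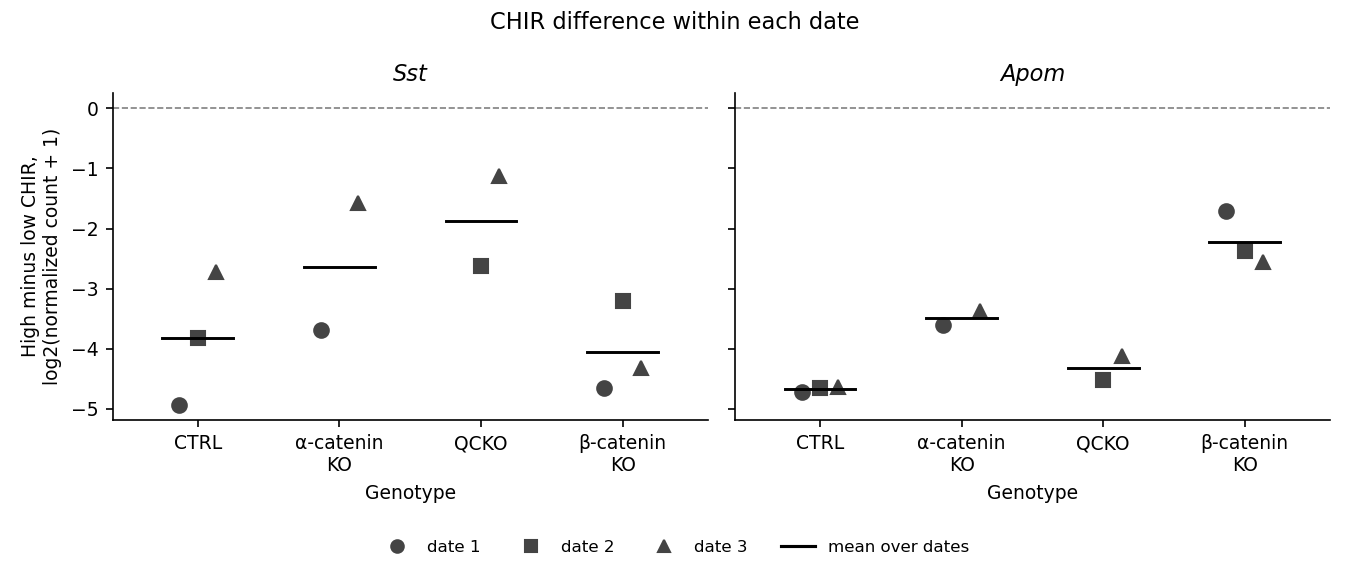
Difference between high and low CHIR on the log2(normalized count + 1) scale for *Sst* and *Apom* within each date, by genotype, with bars at the mean over dates (n = 3 for CTRL and β-catenin KO, n = 2 for α-catenin KO and QCKO). All 10 differences of each gene lie below 0. Those of *Apom* in CTRL span -4.71 to -4.63 and those in β-catenin KO -2.56 to -1.71.

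The response in α-catenin KO and QCKO, which did not enter the choice of genes, was tested. In α-catenin KO, *Apom* fell from 341 and 279 normalized counts in low CHIR to 27.1 and 26.2 in high CHIR. The log2 difference was -3.49 (SE 0.27, 95% interval -4.07 to -2.90; limma, adjusted p = 1.7e-05). In QCKO *Apom* fell from 382 and 325 to 15.7 and 17.8. The log2 difference there was -4.32 (SE 0.27, interval -4.91 to -3.73, adjusted p = 3.0e-06). *Apom* was called in both genotypes under all 15 alternatives run for each. Over all genes 4.39% were called in α-catenin KO, and QCKO had 4.93%.

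*Sst* was lower in high CHIR in both genotypes but with a wide spread. In α-catenin KO it had 396 and 228 normalized counts in low CHIR, against 29.6 and 75.6 in high CHIR. The log2 difference of -2.64 (SE 0.72, interval -4.20 to -1.07) did not pass the threshold (limma, adjusted p = 0.062). It passed with the date as a block (adjusted p = 0.018), and was between 0.0049 and 0.42 over the 15 alternatives. In QCKO *Sst* had 371 and 424 normalized counts in low CHIR, against 59.2 and 195 in high CHIR. The log2 difference of -1.88 (SE 0.72, interval -3.44 to -0.31) did not pass (adjusted p = 0.22, from 0.051 to 0.87 over 15 alternatives). Without the high CHIR library of date 2 it was -1.03 and without that of date 3 it was -2.73. The levels of the groups did not overlap in either genotype, and each interval lies below 0. *Sst* retained 45.9% of its low CHIR level in QCKO on date 3 and 33.1% in α-catenin KO on date 3.

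Date and residual *Sst* went together in the genotypes that had β-catenin. In high CHIR the date 3 library had the most *Sst* in CTRL (65.8 against 13.6 and 17.1), in α-catenin KO (75.6 against 29.6) and in QCKO (195 against 59.2). In β-catenin KO the date 3 library had the least (6.94). *Apom* on date 3 was within 14.9 to 26.2 in those 3 genotypes, close to the other dates of each. The date was not tested as a cause, and whether the *Sst* response to CHIR differed between genotypes was not tested.

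Knockouts were then compared with CTRL at the same CHIR concentration. These comparisons share the CTRL libraries, by which the genes were chosen, and for β-catenin KO the libraries of both sides entered the choice, so *Sst* and *Apom* are described without a test. In high CHIR, *Apom* was higher in β-catenin KO than in CTRL (52.5 ± 9.17 against 15.2 ± 1.76 normalized counts, SD, n = 3 each). The groups did not overlap, the log2 difference was 1.72 (SE 0.21), and the ratio on dates 1, 2 and 3 was 4.58, 2.98 and 2.97. Over all genes 10.5% were called in this comparison. Without the β-catenin KO library of date 1 the difference was 1.59. *Sst* went the other way, at 8.72 ± 1.58 in β-catenin KO and 32.2 ± 29.2 in CTRL (SD, n = 3 each). Its log2 difference was -1.44 (SE 0.56). The ratio was 0.679, 0.584 and 0.105 on dates 1, 2 and 3, lowest on date 3. Without the CTRL library of date 3 the log2 difference was -0.76, and without the CTRL library of date 1 it was -1.85.

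In low CHIR both genes had lower means in β-catenin KO than in CTRL. *Apom* had 247 ± 35.4 normalized counts against 410 ± 39.2 in CTRL (SD, n = 3 each), and the groups did not overlap. Its log2 difference was -0.74 (SE 0.21), and the ratio was 0.540, 0.593 and 0.673 by date. *Sst* had 172 ± 79.9 against 380 ± 110 (SD, n = 3 each), and the groups overlapped by 1 library. Its log2 difference was -1.20 (SE 0.56), with ratios of 0.579, 0.394 and 0.357 by date. Over all genes 0.0659% were called, 11 genes that were all higher in β-catenin KO in the main fit. Without the β-catenin KO library of date 2 limma called 0 genes. DESeq2 called 189 genes, 182 higher and 7 lower.

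The comparisons of α-catenin KO and QCKO with CTRL are likewise described for *Sst* and *Apom*, because the CTRL libraries entered the choice. In α-catenin KO the share of genes called was 0% in low CHIR and 0% in high CHIR (limma; 109 and 928 genes had an unadjusted p under 0.05, edgeR called 0 in both and DESeq2 1 and 4). In high CHIR *Apom* had 27.1 and 26.2 normalized counts in α-catenin KO, above all 3 CTRL libraries. The log2 difference was 0.78 (SE 0.25), with ratios of 1.99 and 1.76 on dates 1 and 3. *Sst* differed by 0.90 in high CHIR (SE 0.66), with values from 0.23 (without the α-catenin KO library of date 3) to 1.58 (without the CTRL library of date 3) when 1 library was left out. In low CHIR the log2 differences were -0.41 for *Apom* (SE 0.25) and -0.29 for *Sst* (SE 0.66). That of *Sst* ran from -0.69 to 0.10 when 1 library was left out.

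In QCKO the share called was 0.00605% in low CHIR (1 gene) and 0% in high CHIR (limma; 1444 genes had an unadjusted p under 0.05, edgeR called 0 and DESeq2 7). *Sst* in high CHIR was 3.46 and 2.96 times CTRL on dates 2 and 3. Its log2 difference was 2.06 (SE 0.66), with values from 1.21 (without the QCKO library of date 3) to 2.91 (without that of date 2) when 1 library was left out. *Apom* in high CHIR had 15.7 and 17.8 normalized counts, a range that overlapped with that of CTRL (13.6 to 17.1), at a log2 difference of 0.13 (SE 0.25). In low CHIR *Sst* differed by 0.11 (SE 0.66; -0.16 to 0.25 when 1 library was left out) and *Apom* by -0.22 (SE 0.25).

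**Figure D3:**
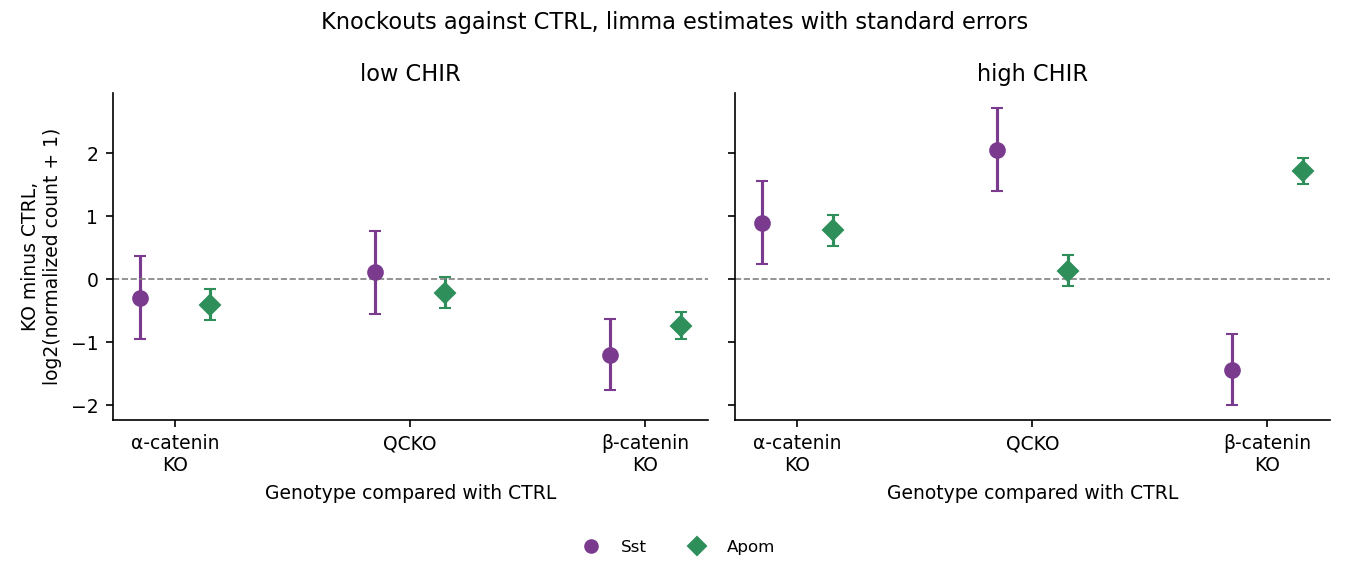
Difference between each KO and CTRL on the log2(normalized count + 1) scale in low and high CHIR, as limma estimates with standard errors, for *Sst* (circles) and *Apom* (diamonds). In β-catenin KO, high CHIR *Apom* is at 1.72 and *Sst* at -1.44.

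Ordered by group mean, *Sst* ran from QCKO (398 normalized counts), CTRL (380), α-catenin KO (312) and β-catenin KO (172) in low CHIR to QCKO (127), α-catenin KO (52.6), CTRL (32.2) and β-catenin KO (8.72) in high CHIR. Libraries of neighbouring groups overlapped at every step of that order but the last. *Apom* ran from CTRL (410) through QCKO (353), α-catenin KO (310) and β-catenin KO (247) in low CHIR to β-catenin KO (52.5), α-catenin KO (26.6), QCKO (16.7) and CTRL (15.2) in high CHIR. For *Apom* neighbouring groups were apart at 5 of 7 steps, and overlapped between QCKO and α-catenin KO in low CHIR and between QCKO and CTRL in high CHIR. The genotype order of *Apom* in high CHIR was thus the reverse of that in low CHIR for CTRL and β-catenin KO, whereas β-catenin KO was last for *Sst* at both concentrations. In bulk libraries fewer expressing cells and less RNA per cell cannot be told apart.

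Symbols exist only for genes that passed one of the deposited comparisons, CHIR in CTRL among them, so counts and medians over listed genes cannot be read against those over all genes. Of 17 listed genes of the somatostatin system 5 had a symbol, *Sst* among them, and none of the 5 was called with CHIR in α-catenin KO and QCKO, beside 4.39% and 4.93% of all genes (limma at the main setting). The median log2 difference was 0.23 and -0.47, against 0.012 and -0.0046 over all genes. *Cort*, which encodes the related peptide cortistatin, was low throughout and not called at the main setting where it was tested. In the comparisons with β-catenin KO its mean was under the filter of 10, so it was not tested there. In high against low CHIR it had group means of 3.89 and 10.3 normalized counts in CTRL, 7.03 and 11.4 in QCKO, 12.9 and 19.2 in α-catenin KO, and 11.8 and 5.60 in β-catenin KO. Its libraries in high CHIR thus lay below those in low CHIR without overlap in all genotypes but β-catenin KO. *Sstr2*, the one somatostatin receptor with a symbol, had group means of 5.69 to 55.0. It was highest in β-catenin KO, low CHIR, where its libraries ran from 12.0 to 128, and differed from CTRL by 2.24 (adjusted p = 0.54). *Furin* and *Pam*, which cleave and amidate peptide precursors, had group means between 258 and 696 and were not called at the main setting. With only the groups compared in the fit, 1 of the 4 genes then tested was called higher with CHIR in QCKO.

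Among other secreted peptides 3 of 18 listed genes had a symbol. *Pthlh*, which encodes parathyroid hormone-related protein, fell with CHIR in α-catenin KO (log2 difference -2.50, adjusted p = 0.034, called in 9 of 14 alternatives) and QCKO (-2.93, adjusted p = 0.013, called in 12 of 14). *Npy*, which encodes neuropeptide Y, rose in both (log2 difference 2.71 in α-catenin KO, adjusted p = 0.0016 and, in QCKO, 0.00059), under all alternatives. *Tac1*, which encodes substance P, had at most 44.0 normalized counts in any library. Of the genes known to respond to cAMP through CREB, 5 of 14 had a symbol and none of the 5 was called with CHIR in these genotypes, beside 4.39% and 4.93% of all genes. *Nr4a1*, an early-response nuclear receptor, was higher in β-catenin KO than in CTRL in high CHIR (1.97, adjusted p = 0.019, called in 11 of 15 alternatives). Over all genes 10.5% were called in that comparison. In CTRL *Nr4a1* fell with CHIR (-1.26, limma, adjusted p = 0.048, called in 8 of 16 alternatives), where 10.7% of all genes were called.

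Of the genes that make, carry, sense or degrade S1P, 6 of 15 had a symbol. With CHIR, *Apom* was the gene of the 6 called in α-catenin KO (1 or 2 genes called over the alternatives), and *Apom* and *Spns2*, the S1P exporter, fell in QCKO (1 to 5 genes), beside 4.39% and 4.93% of all genes called. *Spns2* had a mean of 80.6 normalized counts in QCKO, low CHIR and 7.03 in QCKO, high CHIR (log2 difference -3.35, adjusted p = 0.014). This call was lost when any 1 of the 4 QCKO libraries was left out, with an adjusted p of up to 0.13. *Plpp3*, a phosphatase that degrades extracellular S1P, differed by -1.43 in α-catenin KO (adjusted p = 0.058) and -1.19 in QCKO (adjusted p = 0.12). In CTRL *S1pr2*, *Plpp1* and *Plpp3* were also called lower with CHIR, at log2 differences of -1.45, -1.51 and -1.26, where 10.7% of all genes were. These calls were lost in 6, 5 and 3 of 17 alternatives, and all 3 were lost without the high CHIR library of date 2.

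In high CHIR, *S1pr2* and *Plpp1* were higher in β-catenin KO than in CTRL, a comparison with 10.5% of all genes called. *S1pr2*, the one S1P receptor with a symbol, had 550 normalized counts in β-catenin KO (365 to 870) and 205 in CTRL (99.3 to 352). Its log2 difference was 1.51 (adjusted p = 0.035), a call that was lost in 6 of 16 alternatives, among them leaving out the CTRL library of date 2 or 3 or the β-catenin KO library of date 1 or 2. *Plpp1*, a phosphatase related to *Plpp3*, had 386 (337 to 446) against 70.7 (28.8 to 107), a log2 difference of 2.61 (adjusted p = 0.00058), called in all 16 alternatives. Unlike *Apom*, both had a level in β-catenin KO that hardly differed between low and high CHIR, at log2 differences of -0.07 for *S1pr2* and 0.11 for *Plpp1*. *Sphk2*, a kinase that makes S1P, had group means of 421 to 611 and was not called at the main setting.

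Among other lipoprotein genes 4 of 26 had a symbol, and none of the 3 tested was called with CHIR in α-catenin KO or QCKO, where 4.39% and 4.93% of all genes were. *Apoa1*, the main protein of high-density lipoprotein, had group means of 2.99 to 28.6 normalized counts. *Lrp1*, a lipoprotein receptor, was higher in β-catenin KO than in CTRL in high CHIR (log2 difference 1.45, adjusted p = 0.045), a call that held in 8 of 16 alternatives. Of 11 lipid carriers with the lipocalin fold or its relatives, 4 had a symbol. *Crabp2* and *Fabp5*, which bind retinoic acid and fatty acids, rose with CHIR in α-catenin KO and QCKO, opposite to *Apom*. Both calls held in 12 of 15 alternatives in α-catenin KO and 11 of 15 in QCKO. Of 17 factors known to regulate *Apom* or *Sst*, 2 had a symbol, *Meis1* and *Jun*. *Meis1* fell with CHIR in QCKO (called in 12 of 15 alternatives), and neither was called in α-catenin KO. In CTRL, where 10.7% of all genes were called, *Meis1* fell (-1.47, limma, adjusted p = 0.0014, called in all 17 alternatives). *Jun* rose there (1.12, limma, adjusted p = 0.037, called in 9 of 16 alternatives).

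Some markers of other cells moved with CHIR as well. *Elavl4*, the one neuronal marker of 10 with a symbol, fell in α-catenin KO (log2 difference -1.18, a call lost when any 1 of its 4 libraries was left out) and QCKO (-1.51, lost only without the low CHIR library of date 3), from group means of 1025 and 1055 normalized counts to 453 and 369. In β-catenin KO it had 801 in low CHIR (530 to 1124) and 566 in high CHIR (490 to 714). None of the 9 markers of endocrine delta cells (*Sst* not counted), none of the 9 of proximal tubule and none of the 8 of leukocytes had a symbol. Of the 10 stromal markers 2 had one, *Tcf21* and *Meis1*. Their summed level was 5851 to 7119 in CTRL, low CHIR and 1166 to 2024 in CTRL, high CHIR, and in β-catenin KO it was 3875 to 6034 and 2210 to 2780. Mean sums went from 5989 to 1717 in α-catenin KO and from 7491 to 1550 in QCKO. *Tcf21*, a transcription factor of kidney stroma and podocytes, fell with CHIR in α-catenin KO (log2 difference -2.59, adjusted p = 0.0055) and QCKO (-3.24, adjusted p = 0.0010), and was higher in β-catenin KO than in CTRL in high CHIR (1.52, adjusted p = 0.015). *Tek*, an endothelial receptor, rose with CHIR in α-catenin KO (4.70, adjusted p = 0.0030) and QCKO (6.71, adjusted p = 0.00021), and *Gata3*, a factor of the ureteric epithelium, rose by 3.27 (adjusted p = 0.0095) and 4.27 (adjusted p = 0.0014). *Hoxb7*, another ureteric marker, rose in α-catenin KO (1.38, adjusted p = 0.016) and was not called in QCKO. Of the 4 ureteric markers with a symbol 3 were tested, and *Wnt11* and *Krt8* were called in neither genotype. In α-catenin KO the calls were lost without the high CHIR library of date 3 for *Tcf21*, *Gata3* and *Hoxb7*, without the low CHIR library of date 3 for *Gata3* and without that of date 1 for *Hoxb7*. The call on *Tcf21* against CTRL, a comparison with 10.5% of all genes called, was lost without the CTRL library of date 2. It was also lost with only the groups compared in the fit. The part of other cell types in the levels of *Sst* and *Apom* was not tested.

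Over the 20 libraries the log2 levels of *Sst* and *Apom* had a Pearson correlation of 0.71 with each other, and Spearman's was 0.74. This describes points that share dates, genotypes and the CHIR contrast by which both were chosen, and it carries no test. Among the 16691 genes with a mean of at least 10, *Apom* ranked 75th for likeness to *Sst* and *Sst* ranked 854th for likeness to *Apom*. The patterns differed in where β-catenin KO, high CHIR stood, below all other groups for *Sst* and above the other high CHIR groups for *Apom*.

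The genes most like *Apom* were *Frat1* (Pearson correlation 0.97), *Hoxc10* (0.97), *Stard3* (0.96), *Metrn* (0.96) and *E430018J23Rik* (0.96). *Frat1*, a GSK3-binding protein, had group means of 202 to 273 normalized counts in low CHIR. In high CHIR it had 38.2 in CTRL and 74.4 in β-catenin KO. *Hoxc10*, a homeobox factor, went from 7081 to 2511 in CTRL and from 5294 to 3513 in β-catenin KO. *Metrn*, a secreted factor, went from 166 to 46.3 in CTRL and from 128 to 75.2 in β-catenin KO. All 5 thus kept more of their level in β-catenin KO than in CTRL in high CHIR, as *Apom* did. The correlation by which they were picked included the β-catenin KO libraries. A likeness to *Apom* in β-catenin KO was therefore favoured by the choice and is only described. With the β-catenin KO libraries left out, 0 of these 5 stayed among the 5 genes most like *Apom*. The most opposite patterns were those of *Scube3* (-0.97), *Tnnt3* (-0.96) and *Ntsr2* (-0.95). *Scube3*, a secreted and membrane-bound protein, went from 85.1 to 1105 in CTRL and from 147 to 392 in β-catenin KO.

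The genes most like *Sst* were the gene ENSMUSG00000058886, for which no symbol is paired (0.90), *Mtus2* (0.88), *Lgr5* (0.87), *Lzts1* (0.86) and *Fzd2* (0.83). Their changes were smaller than that of *Sst*. *Lgr5*, a receptor for R-spondins and a listed Wnt target, went from 390 to 198 normalized counts in CTRL and from 298 to 122 in β-catenin KO. *Fzd2*, a Wnt receptor, went from 1779 to 897 in CTRL and from 1102 to 705 in β-catenin KO. *Lzts1* went from 1321 to 543 and from 845 to 321. The most opposite patterns were those of *Gatm* (-0.85), *Morrbid* (-0.85) and *Heyl* (-0.84). *Gatm*, an enzyme of creatine synthesis, went from 42.5 to 121 in CTRL and from 104 to 220 in β-catenin KO. *Heyl*, a Notch effector, went from 64.6 to 763 in CTRL and from 112 to 1201 in β-catenin KO, where both genes had their highest group mean.

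**Figure D4:**
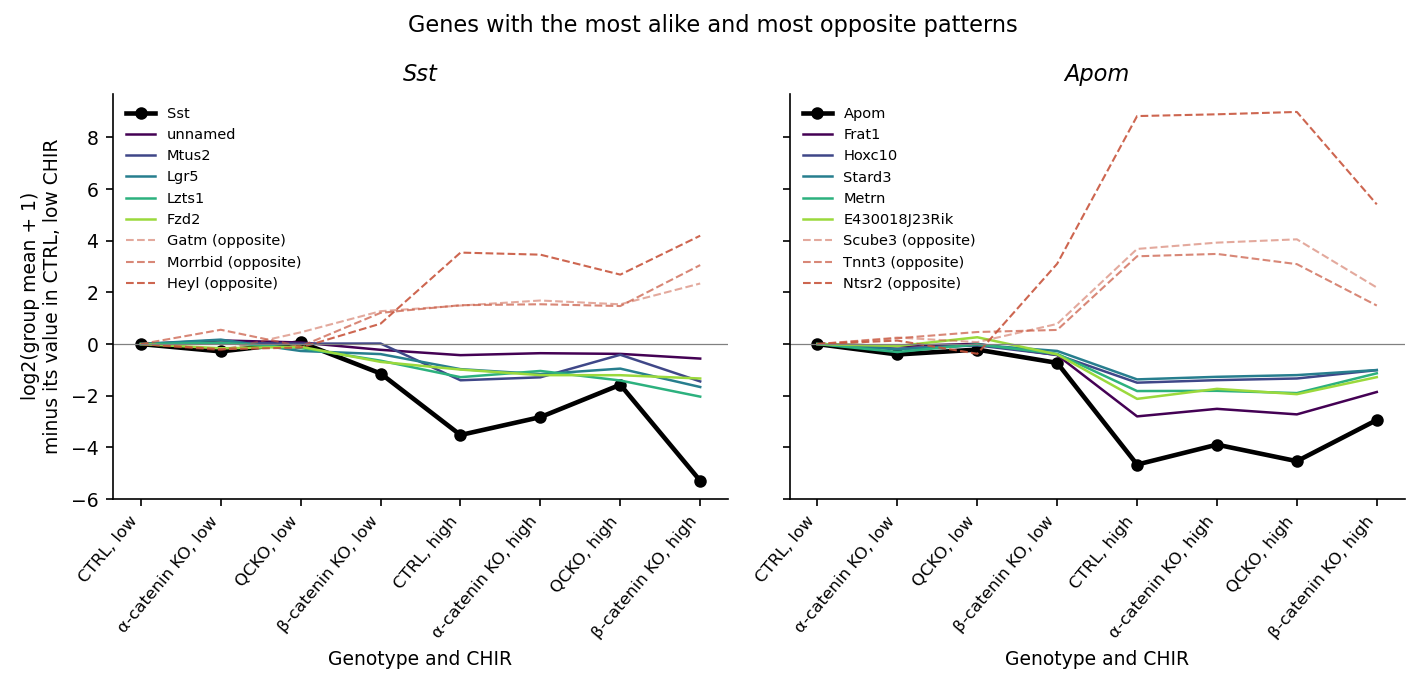
Group means on the log2(mean + 1) scale relative to CTRL, low CHIR, for *Sst* and *Apom* (black) with the 5 genes of the most alike pattern (solid lines; the gene without a symbol is marked unnamed) and the 3 of the most opposite pattern (dashed lines) over 20 libraries. *Sst* and *Apom* change more than the genes alike to them, and in β-catenin KO, high CHIR the line of *Sst* is at its lowest while that of *Apom* turns upward from QCKO.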

How the data were processed

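Messenger RNA was sequenced by the authors (SMARTer Ultra Low libraries, paired-end reads) from 20 cultures grouped by sgRNA and CHIR as the labels give them. The study's text speaks of 2 biological replicates, while the labels give 3 for CTRL and β-catenin KO, and the labels were followed. The submitters' processing notes name STAR, featureCounts, Salmon and DESeq2, and the builds GRCm38, mm10 and GRCh38, with no role for each. The deposited signal values are normalized counts: for each library the authors had scaled its reads by 1 factor. In 18 libraries all values were whole multiples of the smallest step, within 0.01 of a step, and gave back whole reads. In 2 libraries the step is close to 1 and the check tells less. Comparison tables of the authors, with DESeq2 fold changes and p-values, were used only to pair identifiers with symbols (4316 genes).

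Values were tested as log2(normalized count + 1) with limma 3.58.1 in R 4.3.3 (1 mean per group, mean-variance trend, Benjamini-Hochberg adjustment over genes with a mean of at least 10). Contrasts without β-catenin KO used 14 libraries (16516 genes) and those with it used 20 (16691 genes). The scale understates changes of low genes. The fits were tested on simulated data. Labels do not say whether cultures came from separate animals, so p-values measure the spread between these cultures.

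Same-numbered libraries carry the same date in their labels, which do not say of which step. Over 58 pairs their deviations from group means correlated at 0.020 to 0.72 across genes (median 0.20). The fit without the date is the main one, and the date as a block is an alternative, as are other filters, pseudocounts, a log2 fold over 1, quantile normalization, other sets of libraries, edgeR 4.0.16 and DESeq2 1.42.0 on the recovered reads, and leaving out each library.

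The genes, lists and tests were chosen with earlier results of these data known. Named are *Sst* and *Apom*, for each the 5 genes with the highest and the 3 with the lowest Pearson correlation over 20 libraries, list genes called (all where 10 or fewer), receptors of somatostatin and S1P with a symbol, the targeted genes, *Six2* and *Wnt4*. Other list genes, *Axin2*, *Lef1* and *D17H6S53E* were named after their values were seen. All lists had symbols for under 80% of their genes, so counts describe the named genes only. Of the remaining marker lists, 4 of 10 ureteric epithelium genes and 1 of 8 endothelium genes (*Tek*) had a symbol. Promoters were searched for motifs on both strands. Protein sequences were not used here.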

Additional observations from a re-analysis of the deposited data

Results flagged for a closer look

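Each group held 2 or 3 libraries, so no library was tested as an outlier within its group. In 3 cases the KO libraries moved one way against CTRL of the same date in low CHIR and the other way in high CHIR, in every library. For *Apom* in β-catenin KO the mean of the within-date log2 differences was -0.74 in low CHIR (lower on 3 of 3 dates) and 1.72 in high CHIR (higher on 3 of 3 dates). For *Apom* in α-catenin KO it was -0.33 in low and 0.86 in high CHIR (2 of 2 dates each). For *Sst* in α-catenin KO it was -0.56 in low and 0.63 in high CHIR (2 of 2 dates each), and the 4 differences ran from -0.95 to 1.07. These differences between CHIR concentrations were not tested, because each is also a difference in the response to CHIR between the KO and CTRL, and the response of CTRL entered the choice of both genes. With 2 dates, agreement in direction carries little weight.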

How the results depend on the processing

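Of the 20 results on *Sst* and *Apom* (the tested CHIR response in α-catenin KO and QCKO, and the differences that are only described), most kept their direction. The call on *Sst* between high and low CHIR in α-catenin KO was gained with only the groups compared (log2 difference -2.64), with the date as a replicate block (-2.64), with DESeq2 (-2.56) and with all 20 libraries (-2.64). Differences that are only described stood at -0.73 for *Apom* in β-catenin KO against CTRL, low CHIR with DESeq2, at -1.93 for *Sst* in high CHIR with DESeq2, and at 1.72 for *Apom* in high CHIR with only the groups compared. The block changed no other call on these 2 genes, but moved the genes called from 725 to 1186 in α-catenin KO, from 814 to 1278 in QCKO and from 3 to 40 in β-catenin KO with CHIR. With a pseudocount of 5 the described difference of *Apom* in CTRL moved to -4.36, which the pseudocount itself shrinks. *Sst* in low CHIR reversed without 1 library, to 0.10 in α-catenin KO (without date 3; range -0.69 to 0.10) and to -0.16 in QCKO (without CTRL date 2; range -0.16 to 0.25). Leaving out 1 library at a time, *Sst* in β-catenin KO against CTRL, high CHIR ran from -1.85 to -0.76.

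Over the alternatives, the genes called ran from 281 to 1186 with CHIR in α-catenin KO, 368 to 1855 in QCKO, 761 to 2986 in CTRL and 0 to 80 in β-catenin KO. Against CTRL they ran from 0 to 219 (main 11) in β-catenin KO, low CHIR, 240 to 3060 (main 1757) in high CHIR, 0 to 1 and 0 to 4 in α-catenin KO, and 0 to 2 and 0 to 7 in QCKO. The S1P list had 1 to 3 genes called in β-catenin KO against CTRL, high CHIR, and with CHIR 1 to 5 in QCKO, 1 to 2 in α-catenin KO and 1 to 4 in CTRL. Of the 5 genes most like each, Spearman's correlation kept 3 for *Sst* and 3 for *Apom*, and without the 6 β-catenin KO libraries 0 remained for either. Depth limits *Sst* most in β-catenin KO, high CHIR (8 to 9 reads), and *Apom* in CTRL, high CHIR (12 to 19 reads). With 2 or 3 libraries a group, intervals are wide. The causes of these differences between settings were not tested.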
